A study of Mus musculus with 8 samples.

Results

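The conjugating enzymes described here are the glutathione S-transferases (GST), the UDP-glucuronosyltransferases (UGT) and the sulfotransferases (SULT) of mouse liver. They were taken by gene symbol alone, from 3 name patterns that cover the soluble GST classes alpha, kappa, mu, omega, pi, theta and zeta, the UGT families 1 to 3 and all numbered SULT genes. The patterns matched 82 of 56605 probes, which stand for 56 of 26894 gene symbols, made up of 21 GST, 14 UGT and 21 SULT genes. The 4 Tx livers came from female NFS/sld mice whose thymus was removed on day 3 of life, a model of primary Sjögren's syndrome, and they were taken 8 weeks after that operation. The 4 nonTx livers came from female NFS/sld mice that kept their thymus, and the labels do not give their age directly. Both groups carry the NFS/sld background, and the sources used here do not say whether the nonTx mice had a sham operation. Each liver's RNA was labelled with Cy3 and read on its own one-colour Agilent array. The labels speak of independent replicates without saying that each is a separate mouse.

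Conjugating enzymes attach a water-soluble group to drugs, steroids, bile acids, bilirubin or products of oxidation, which the liver and kidney can then excrete. GSTs add glutathione, UGTs add glucuronic acid from UDP-glucuronate in the endoplasmic reticulum, and SULTs add sulfate from the donor PAPS in the cytosol. Hepatocytes hold much of the body's capacity for all 3 reactions, and several of these genes differ between male and female mice.

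All values are fluorescence intensities, scaled so that the 75th percentile of each array was the same, and a scaled signal compares arrays for 1 probe but not 1 probe with another. Differences are Tx minus nonTx on the log2 scale, with the standard error from a limma fit over 30955 probes, and a gene is represented by its brightest tested probe. Of the 56 genes, 52 had a probe above background often enough to be tested. Sult2b1, Sult6b1 and Sult6b2 were well above background on 0 arrays, and Gstt4 was so on 0 Tx arrays and 2 nonTx arrays. Several of these genes are near-identical copies (the Gstm, Gstp, Sult2a and Ugt2b genes, and the exons that Ugt1a transcripts share), so a probe may read more than 1 of them. The array's 75th percentile ran from 224.8 to 330 in Tx livers and from 273.6 to 301.8 in nonTx livers, and between 51.1% and 57.12% of gene probes were well above background. All 8 arrays shared 1 slide and 1 scan, and the first number of the position was 2 for all Tx arrays and 1 for all nonTx arrays, so position and group cannot be told apart.

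Promoters of 5 Sult2a and 3 Ugt2b genes are shown to set genes with a like pattern over the 8 arrays beside their sequences. The Sult2a enzymes add sulfate to hydroxysteroids and bile acids, and Sult2a3, Sult2a4, Sult2a5 and Sult2a6 had their highest value in the same nonTx liver, while Sult2a8, shown for contrast, did not. Each printed stretch runs from 250 bases before to 50 after the RefSeq gene start in build GRCm38.p6, read 5′ to 3′ along the gene. Capitals mark GTTAAT on either strand, the half-site of the liver factor HNF1.
Sult2a3, chr7:14122999-14123298, minus strand: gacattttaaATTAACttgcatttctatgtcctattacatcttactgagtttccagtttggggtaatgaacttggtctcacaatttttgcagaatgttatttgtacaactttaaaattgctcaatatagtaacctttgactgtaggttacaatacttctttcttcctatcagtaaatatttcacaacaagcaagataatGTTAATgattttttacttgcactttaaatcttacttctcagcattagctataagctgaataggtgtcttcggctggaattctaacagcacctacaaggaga
Sult2a4, chr7:13989539-13989838, minus strand: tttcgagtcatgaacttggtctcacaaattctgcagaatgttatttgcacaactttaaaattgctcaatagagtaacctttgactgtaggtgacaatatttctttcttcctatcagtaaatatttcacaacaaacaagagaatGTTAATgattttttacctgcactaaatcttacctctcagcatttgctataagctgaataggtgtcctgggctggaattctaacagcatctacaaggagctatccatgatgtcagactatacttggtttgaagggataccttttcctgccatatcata
Sult2a5, chr7:13623717-13624016, plus strand: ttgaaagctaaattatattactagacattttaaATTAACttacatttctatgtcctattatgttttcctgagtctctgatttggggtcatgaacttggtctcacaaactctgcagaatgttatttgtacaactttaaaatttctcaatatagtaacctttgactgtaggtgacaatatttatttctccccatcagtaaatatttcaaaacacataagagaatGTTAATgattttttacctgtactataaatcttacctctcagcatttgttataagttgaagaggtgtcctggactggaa
Sult2a6, chr7:14254821-14255120, minus strand: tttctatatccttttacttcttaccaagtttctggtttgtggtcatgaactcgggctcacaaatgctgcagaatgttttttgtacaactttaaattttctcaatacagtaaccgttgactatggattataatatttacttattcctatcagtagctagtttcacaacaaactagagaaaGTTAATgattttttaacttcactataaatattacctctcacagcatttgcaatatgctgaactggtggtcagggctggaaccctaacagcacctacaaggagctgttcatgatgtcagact
Sult2a8, chr7:14438502-14438801, minus strand: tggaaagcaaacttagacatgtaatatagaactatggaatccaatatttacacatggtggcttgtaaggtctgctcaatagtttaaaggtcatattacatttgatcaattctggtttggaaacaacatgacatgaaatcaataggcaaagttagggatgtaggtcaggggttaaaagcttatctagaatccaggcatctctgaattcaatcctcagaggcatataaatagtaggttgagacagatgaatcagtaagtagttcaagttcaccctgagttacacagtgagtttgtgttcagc
The half-site occurs at bases 11 and 200 in Sult2a3, 144 in Sult2a4, 34 and 223 in Sult2a5, and 180 in Sult2a6. The printed Sult2a8 stretch holds none. Among all 32851 RefSeq mouse promoters of this length 7.1% hold GTTAAT on either strand, and 20.3% of the 59 promoters listed for members do. The Sult2a3 stretch is identical to Sult2a5 at 75.9% of aligned positions and to Sult2a8 at 49.3%, the highest and lowest values among these 5 genes. Here and below these shares count gaps and unpaired ends as aligned positions, so stretches that share sequence at different offsets score low. Sult2a4, with its half-site at base 144 against 34 and 223 in Sult2a5, is identical to Sult2a5 at 53.5% and to Sult2a8 at 53.2%. Whether likeness in sequence followed the pattern over the arrays cannot be read from these shares.

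The Ugt2b set belongs to 3 genes of the cluster on chromosome 5, whose enzymes glucuronidate steroids and drugs. Capitals mark bases that differ from Ugt2b5, or have no partner base in it, in a global alignment.
Ugt2b5, chr5:87140291-87140590, minus strand: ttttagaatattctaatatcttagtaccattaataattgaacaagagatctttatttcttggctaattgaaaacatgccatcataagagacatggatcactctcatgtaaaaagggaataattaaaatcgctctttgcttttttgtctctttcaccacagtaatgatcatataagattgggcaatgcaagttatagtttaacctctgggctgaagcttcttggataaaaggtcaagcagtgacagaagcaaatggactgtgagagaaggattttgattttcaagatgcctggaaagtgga
Ugt2b37, chr5:87254739-87255038, minus strand: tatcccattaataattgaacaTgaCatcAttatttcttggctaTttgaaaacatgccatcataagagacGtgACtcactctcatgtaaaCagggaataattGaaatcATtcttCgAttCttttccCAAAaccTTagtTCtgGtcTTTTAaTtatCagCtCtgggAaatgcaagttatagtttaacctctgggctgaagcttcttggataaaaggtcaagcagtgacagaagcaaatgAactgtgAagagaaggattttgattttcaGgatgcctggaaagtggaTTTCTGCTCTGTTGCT
Ugt2b38, chr5:87424154-87424453, minus strand: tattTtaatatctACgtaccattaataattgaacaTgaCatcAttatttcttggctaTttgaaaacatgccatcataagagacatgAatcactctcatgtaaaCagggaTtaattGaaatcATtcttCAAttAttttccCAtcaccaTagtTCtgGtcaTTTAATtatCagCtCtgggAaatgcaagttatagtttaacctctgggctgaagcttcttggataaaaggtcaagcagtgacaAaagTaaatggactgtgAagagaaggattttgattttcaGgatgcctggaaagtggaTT
The Ugt2b38 stretch is identical to Ugt2b37 at 87.3% of aligned positions and to Ugt2b5 at 84.2%, while Ugt2b37 and Ugt2b5 share 76.5%. These stretches hold no GTTAAT. Promoters were listed for 48 of the 56 members. The other motifs searched on both strands were TGACNNNGC, an antioxidant response element, in 5.08% of member promoters and 12.4% of all, GCGTG, a xenobiotic response element, in 16.9% and 32.4%, and TTCNNNGAA, a STAT element, in 5.08% and 8.3%. A match describes these letters only.

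No conjugating-enzyme gene differed between Tx and nonTx livers past an adjusted p of 0.05, and neither did any other tested gene (0% of 16495 genes). The smallest adjusted p among the members was 0.313, for Gstm2, and the smallest over all probes was 0.0577. At an unadjusted p under 0.05, 7 of the 52 genes were higher in Tx livers, against a background of 8.65% of all tested genes, and 0 were lower, against 5.25%. The 7 were Gstm2, Gstt2, Ugt2b1, Ugt2b5, Ugt2b34, Ugt2b36 and Ugt2b37. Without Tx 1 the number higher was 17, and without nonTx 1 or nonTx 3 it was 4. Gstm2, Ugt2b34 and Ugt2b37 were among them whichever of the 8 arrays was left out. In 1 of the 52 genes, Ugt2b34, all Tx arrays lay above all nonTx arrays, where the background is 5.11%, and in 0 genes did they lie below, where it is 2.95%.

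How many members were higher in Tx livers rested on the scaling. With the 75th-percentile scaling the mean was higher in Tx livers for 46 of 52 members, against 56.3% of all tested genes, but for 32 with quantile normalization, 26 with no scaling and 14 with scaling to spike-in RNAs. The median difference of the members was 0.16, and that of all tested genes 0.03. Among the 4685 genes at least as bright as the members' lower quartile, a set chosen after values were seen, 78.74% were higher and the median was 0.12. Scaling to spike-in RNAs moved the median of all probes to -0.22, scaling to the array median moved it to 0.12 and no scaling to -0.14, against 0.02 with the 75th percentile.

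**Figure D1:**
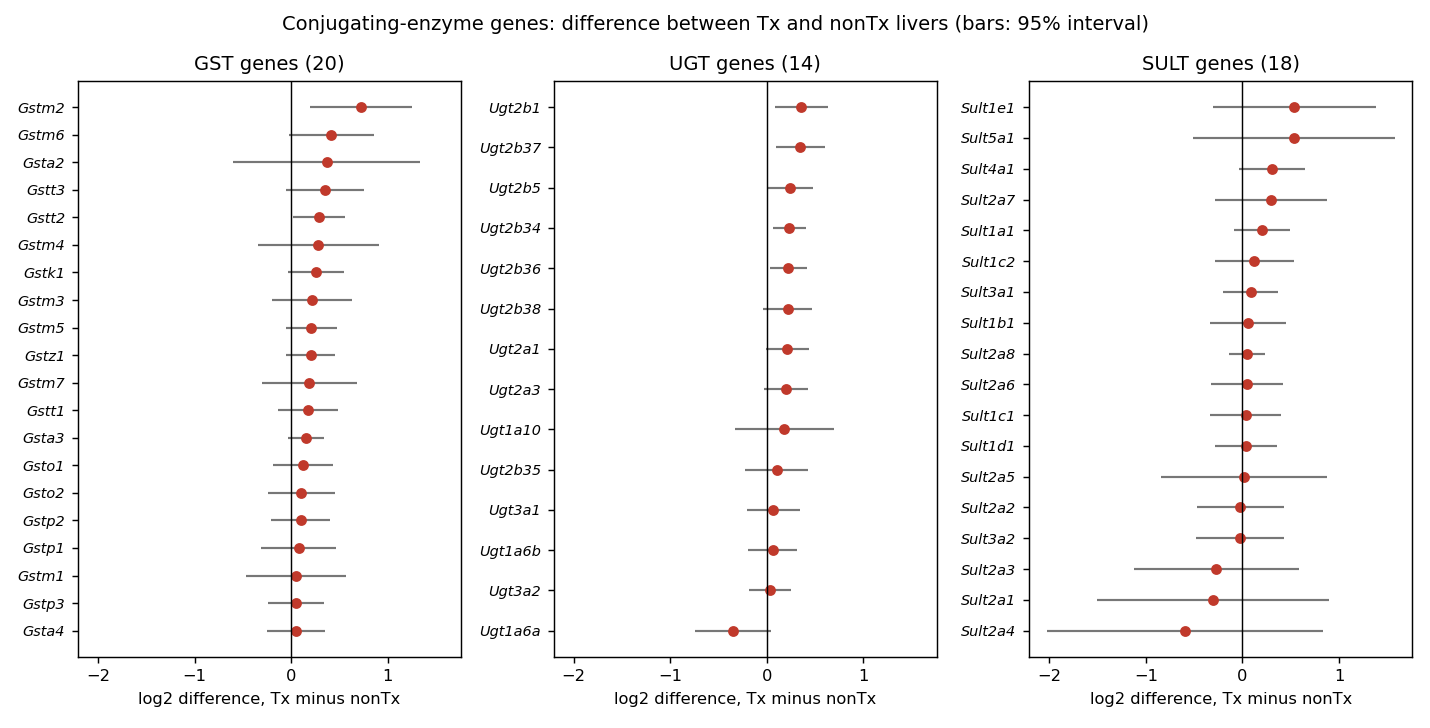
Log2 difference, Tx minus nonTx, of the 52 tested genes, with 1 panel per family; points are estimates from 4 arrays per group and bars their 95% intervals. All 20 GST estimates lie above 0 with the 75th-percentile scaling, but 7 of 20 do with scaling to spike-in RNAs, and most intervals include 0.

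With the 75th-percentile scaling all 20 GST genes had higher means in Tx livers, with a median difference of 0.19, while 14 did with quantile normalization, 12 with no scaling and 7 with scaling to spike-in RNAs. With the 75th-percentile scaling the liver Tx 3 held the highest value in 17 of the 20 GST genes, against 20.3% of all tested genes. This too rested on the scaling, since with no scaling Tx 3 was not highest in several of them, among them Gsta3, Gstk1 and Gstt1. Without Tx 3, 13 of 20 were higher and the median was 0.05, while without Tx 1 the median was 0.30.

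Gstm2, a mu-class GST that conjugates electrophiles in the cytosol, had the largest GST difference. It had scaled signals of 9442, 9225, 19660 and 13910 in Tx livers, against 5901, 9368, 7211 and 8092 in nonTx livers. Tx 1, Tx 3 and Tx 4 stood above every nonTx liver, and Tx 2 lay just below nonTx 2. The difference was 0.72 ± 0.24 (limma, 95% interval 0.19 to 1.25, adjusted p = 0.313). With the 75th-percentile scaling all 7 mu-class genes, which lie together on chromosome 3, had their highest value in Tx 3. With no scaling that of Gstm5 was in Tx 1. Probes of these genes may read one another's transcripts. The median difference of the 7 was 0.22, with 7 of 7 higher at the 75th-percentile scaling and 3 of 7 with spike-in scaling. Gstm6 followed with 4692, 5879, 8766 and 8093 in Tx livers, against 4440, 5768, 4218 and 5708 in nonTx livers. Its groups overlapped, at a difference of 0.42 ± 0.20. Gstm1, a major hepatic mu-class enzyme, differed by 0.05 ± 0.23, and its 95% interval of -0.47 to 0.57 leaves room for either sign. Gstm7 had a second probe near background whose difference was -0.17 ± 0.44, opposite in sign to the 0.19 ± 0.22 of its brightest probe.

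Gstt2, a theta-class GST, had scaled signals of 4360, 4271, 5187 and 5492 in Tx livers, against 3916, 4155, 4492 and 3267 in nonTx livers. Only nonTx 3 reached into the Tx range. The difference was 0.29 ± 0.12 (limma, adjusted p = 0.362). A second, dimmer probe of Gstt2 gave 0.21 ± 0.20. With the mean of a gene's probes Gstt2 was not among the members at an unadjusted p under 0.05. Gstt3 had 19100, 27790, 36520 and 32810 in Tx livers, against 20710, 22990, 20050 and 25100 in nonTx livers. Tx 1 was the lowest of all 8, and the difference of 0.35 ± 0.18 had an interval that reached below 0. Gstk1, the GST of mitochondria and peroxisomes, had 19270, 25140, 29000 and 28820 in Tx livers, against 22250, 21580, 18880 and 21880 in nonTx livers. Here 3 of the Tx livers exceeded all nonTx livers, and the difference was 0.26 ± 0.13. Gstz1, which acts in tyrosine breakdown as maleylacetoacetate isomerase, differed by 0.20 ± 0.12.

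Gsta2, an alpha-class GST that also reduces lipid peroxides, varied most among the GST genes. It had 820.7, 779.6, 2582 and 685.7 in Tx livers, against 439.5, 821.6, 1314 and 864.8 in nonTx livers. Tx 3 was the highest of the 8 livers, and the difference of 0.37 ± 0.43 became -0.07 without it. Gsta3, another alpha-class gene, differed by 0.15 ± 0.08 and Gsta4, which acts on the lipid peroxidation product 4-hydroxynonenal, by 0.05 ± 0.13. The pi-class genes Gstp1, Gstp2 and Gstp3 lay between 0.05 and 0.10, and the omega-class genes Gsto1 and Gsto2 at 0.12 and 0.11.

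Zonation markers were measured beside these values because some GST genes are known to be stronger around the central vein. Of 10 pericentral hepatocyte markers, all with a tested probe, 8 were higher in Tx livers, where 56.3% of all tested genes were. Their summed signals were 232100 to 309300 in Tx livers and 240600 to 261400 in nonTx livers. Slc1a2, Lhpp and Oat differed by 0.54 ± 0.11, 0.56 ± 0.13 and 0.50 ± 0.13. The 2 lower markers were Lgr5, at -0.39 ± 0.14 with all Tx arrays below all nonTx arrays, and Tbx3, at -0.15 ± 0.34, and Cyp2e1 lay at 0.04 ± 0.11, these 3 named after their values were seen. The part of the whole list in the GST values was not tested. In these bulk samples fewer cells of a type and less RNA per cell cannot be told apart.

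The UGT genes were higher in Tx livers in 13 of 14 cases with the 75th-percentile scaling, with a median of 0.20, but in 10 with quantile normalization, 9 with no scaling and 3 with scaling to spike-in RNAs. They varied little within groups, with a median within-group SD of 0.17 on the log2 scale, against 0.22 in GST genes, 0.33 in SULT genes and 0.19 over all tested genes. All 7 Ugt2b genes lay on the higher side with the 75th-percentile scaling, at a median of 0.23, while 6 did with no scaling and 3 with scaling to spike-in RNAs, where Ugt2b34, Ugt2b35, Ugt2b36 and Ugt2b38 were below 0.

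Ugt2b34 was the member whose groups did not overlap. Its scaled signals were 28110, 26660, 30140 and 31170 in Tx livers, against 24090, 24190, 25150 and 25340 in nonTx livers. The difference was 0.23 ± 0.08 (limma, 95% interval 0.06 to 0.40, adjusted p = 0.317). With scaling to spike-in RNAs it was -0.0046.

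Ugt2b37 had 12690, 10410, 12350 and 11530 in Tx livers, against 9153, 11120, 9063 and 7813 in nonTx livers. Only nonTx 2 reached the Tx range, and the difference was 0.35 ± 0.11 (limma, adjusted p = 0.316). Ugt2b5 had 35630, 28240, 35830 and 34160 in Tx livers, against 27920, 31920, 28460 and 24810 in nonTx livers, with overlap, and differed by 0.24 ± 0.11. Ugt2b38 had 53120, 42130, 57480 and 52530 in Tx livers, against 41960, 50630, 43960 and 39990 in nonTx livers, with overlap, and differed by 0.21 ± 0.11. In all 3 of these genes, whose promoters are printed above, Tx 2 was the lowest Tx liver. In all 3 nonTx 2 was the highest nonTx liver and nonTx 4 the lowest. The probes of these 3 genes may read one another's transcripts. In Ugt2b1 and Ugt2b36 Tx 2 was also the lowest Tx liver and nonTx 2 the highest nonTx liver, but nonTx 4 was not the lowest. Their promoter stretches, not printed, are identical to Ugt2b5 at 52.6% and 62.2% of aligned positions.

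Ugt2b1 had 4837, 3443, 4257 and 4403 in Tx livers, against 3446, 3746, 2823 and 3207 in nonTx livers. Tx 2 overlapped with nonTx livers, and the difference was 0.35 ± 0.12 (limma, adjusted p = 0.324). Ugt2b36 had 20840, 18470, 21960 and 20370 in Tx livers, against 16690, 19260, 16930 and 17070 in nonTx livers. Only nonTx 2 reached the Tx range, and the difference was 0.22 ± 0.08. Ugt2b35 differed by 0.10 ± 0.14. The 2 Ugt2a genes, Ugt2a1 and Ugt2a3, lay at 0.21 and 0.20.

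Ugt1a6a, a UGT of small planar phenols, was the UGT gene with a lower mean in Tx livers. It had 101.4, 77.43, 86.11 and 56.78 in Tx livers, against 97.18, 91.89, 97.56 and 116.3 in nonTx livers. Tx 1 overlapped with the nonTx range, and the difference was -0.35 ± 0.18 (limma, 95% interval -0.75 to 0.05, adjusted p = 0.413). Its signals were low, and with another background correction (normexp) the difference was -0.16. Ugt1a6b and Ugt1a10, from the same locus on chromosome 1, lay at 0.06 ± 0.11 and 0.18 ± 0.23. Ugt3a1 and Ugt3a2, whose human relatives use sugars other than glucuronate, lay at 0.07 and 0.03.

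**Figure D2:**
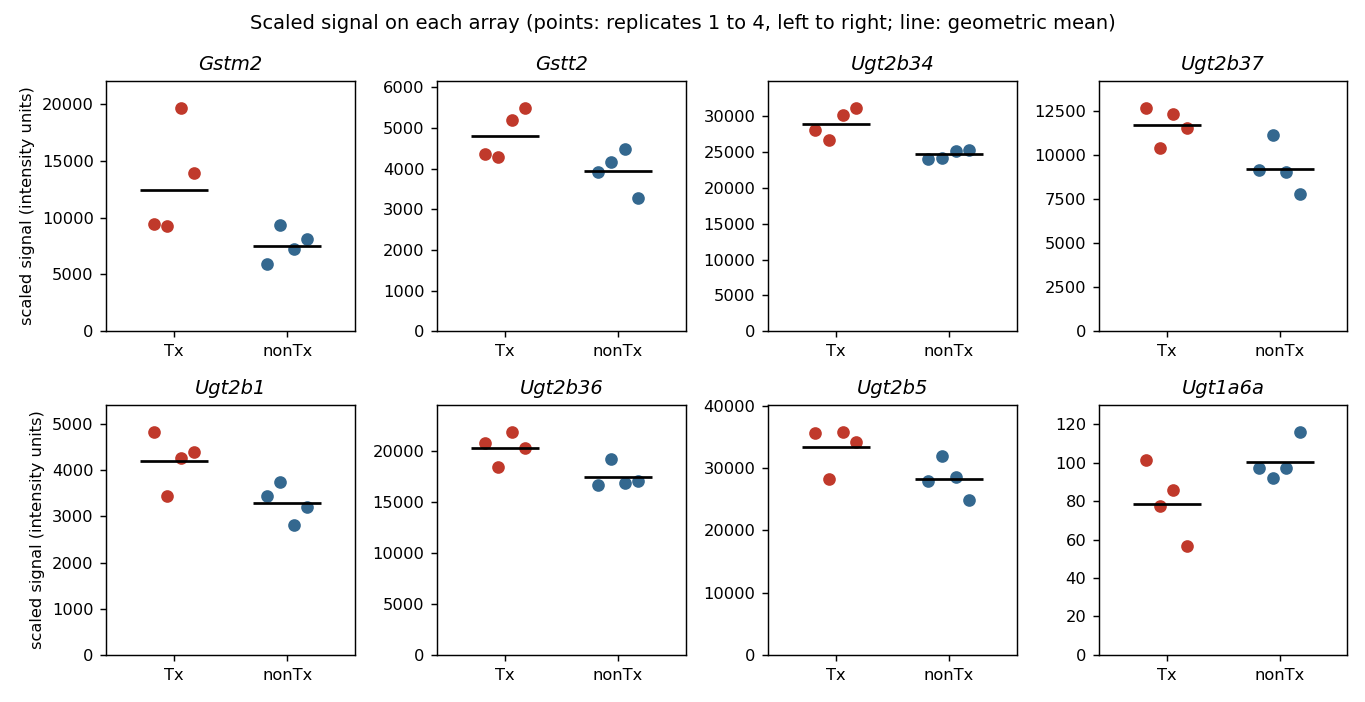
Scaled signal on each array for the 7 members at an unadjusted p under 0.05 and for Ugt1a6a; each panel has its own axis from 0, and lines are geometric means of 4 arrays. The groups are apart in Ugt2b34 and overlap in the other panels, with Tx 3 at 19660 in Gstm2.

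With the 75th-percentile scaling 13 of 18 SULT genes had higher means in Tx livers and the median difference was 0.05, while 8 were higher with quantile normalization, 5 with no scaling and 4 with scaling to spike-in RNAs. With 1 array left out the number higher ran from 7, without Tx 4, to 17, without nonTx 3, and the median from -0.01, without Tx 4, to 0.15, without Tx 1. Of the 18 genes 0 reached an unadjusted p under 0.05. All 6 Sult1 genes, which act on phenols, thyroid hormone and estrogens, were higher with the 75th-percentile scaling, but 4 were with quantile normalization, 2 with no scaling and 1, Sult1e1, with scaling to spike-in RNAs.

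Sult1a1, a phenol sulfotransferase, had 41800, 55250, 55380 and 61880 in Tx livers, against 43400, 42860, 45160 and 53990 in nonTx livers. Tx 1 was the lowest of the 8, and the difference was 0.20 ± 0.13. Sult1e1, the estrogen sulfotransferase, had 52.6, 41.35, 18.96 and 51.37 in Tx livers, against 16.89, 37.35, 20.55 and 37.03 in nonTx livers. Tx 3 lay within the nonTx range, and the difference of 0.54 ± 0.38 had an interval of -0.31 to 1.38. Sult4a1, best known from brain, had 72.46, 65.21, 97.52 and 91.88 in Tx livers, against 67.49, 66.54, 66.26 and 61.18 in nonTx livers. Tx 2 lay within the nonTx range, and the difference was 0.30 ± 0.15 (limma, adjusted p = 0.407). Sult1e1 and Sult4a1 had low signals, and with another background correction (normexp) they differed by 0.27 and 0.23.

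The Sult2a genes of chromosome 7 differed between single livers more than between groups. In 6 of the 8 the highest value was in nonTx 3, which held the highest value in 6.948% of all tested genes. Sult2a4 had 1314, 3808, 941.8 and 1269 in Tx livers, against 980.3, 1623, 9220 and 2123 in nonTx livers. Sult2a1 had 5377, 12420, 4215 and 6135 in Tx livers, against 3920, 5241, 25890 and 7544 in nonTx livers. Sult2a3 had 300.3, 456.8, 192.6 and 253.6 in Tx livers, against 302.6, 207.2, 772.9 and 294.8 in nonTx livers. In each of these 3 genes nonTx 3 was highest and Tx 2 came next. The level in nonTx 3 was 7.02 times the median of the other arrays for Sult2a4, 4.82 times for Sult2a1, 2.62 times for Sult2a3 and 2.13 times for Sult2a5.

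The group differences followed that liver. Sult2a4 differed by -0.59 ± 0.64, Sult2a1 by -0.30 ± 0.54 and Sult2a3 by -0.27 ± 0.38. Without nonTx 3 they were 0.06, 0.26 and 0.11. Sult2a2 and Sult2a6 were also highest in nonTx 3, at 1.385 and 1.24 times the median of the others, and differed by -0.02 ± 0.20 and 0.04 ± 0.17. Sult2a6 had 2 dimmer probes with differences of -0.90 ± 0.71 and -0.86 ± 0.74, opposite in sign to the brightest one, and both were highest in nonTx 3 at 426.5 and 276.2.

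Other sulfotransferases did not share this pattern. Sult2a8, a bile acid sulfotransferase of mouse liver, ranged from 12180 to 15060 in Tx livers and from 12730 to 13480 in nonTx livers, and its highest value was 1.24 times its lowest. Sult2a7 had 63.85, 53.39, 71.93 and 90.38 in Tx livers, against 72.84, 79.59, 39.12 and 43.47 in nonTx livers, with its lowest value in nonTx 3 and a difference of 0.29 ± 0.26. Sult5a1 had 1195, 4051, 1380 and 1635 in Tx livers, against 1124, 1887, 547.7 and 2135 in nonTx livers, with its lowest value in nonTx 3 and its highest in Tx 2. Its difference of 0.53 ± 0.47 had an interval of -0.51 to 1.58. Sult3a1 and Sult3a2 lay at 0.08 ± 0.13 and -0.02 ± 0.20.

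**Figure D3:**
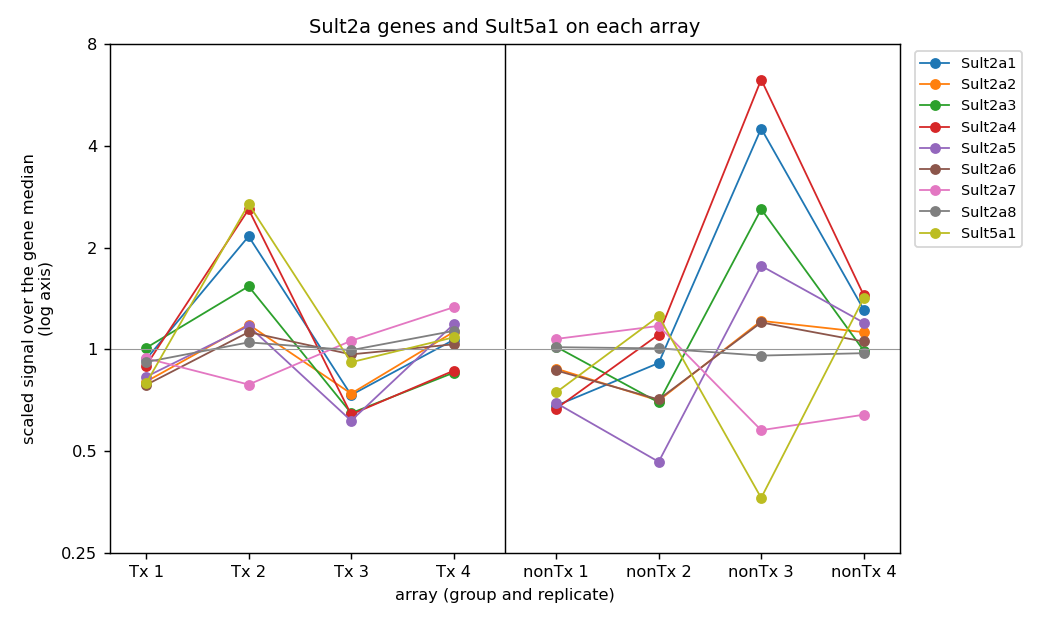
Scaled signal of 8 Sult2a genes and Sult5a1 on each array, divided by the gene's median over the 8 arrays, on a log axis with Tx arrays left. Sult2a1, Sult2a3, Sult2a4 and Sult2a5 peak in nonTx 3, where Sult5a1 and Sult2a7 have their lowest value and Sult2a8 stays near 1.

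**Figure D4:**
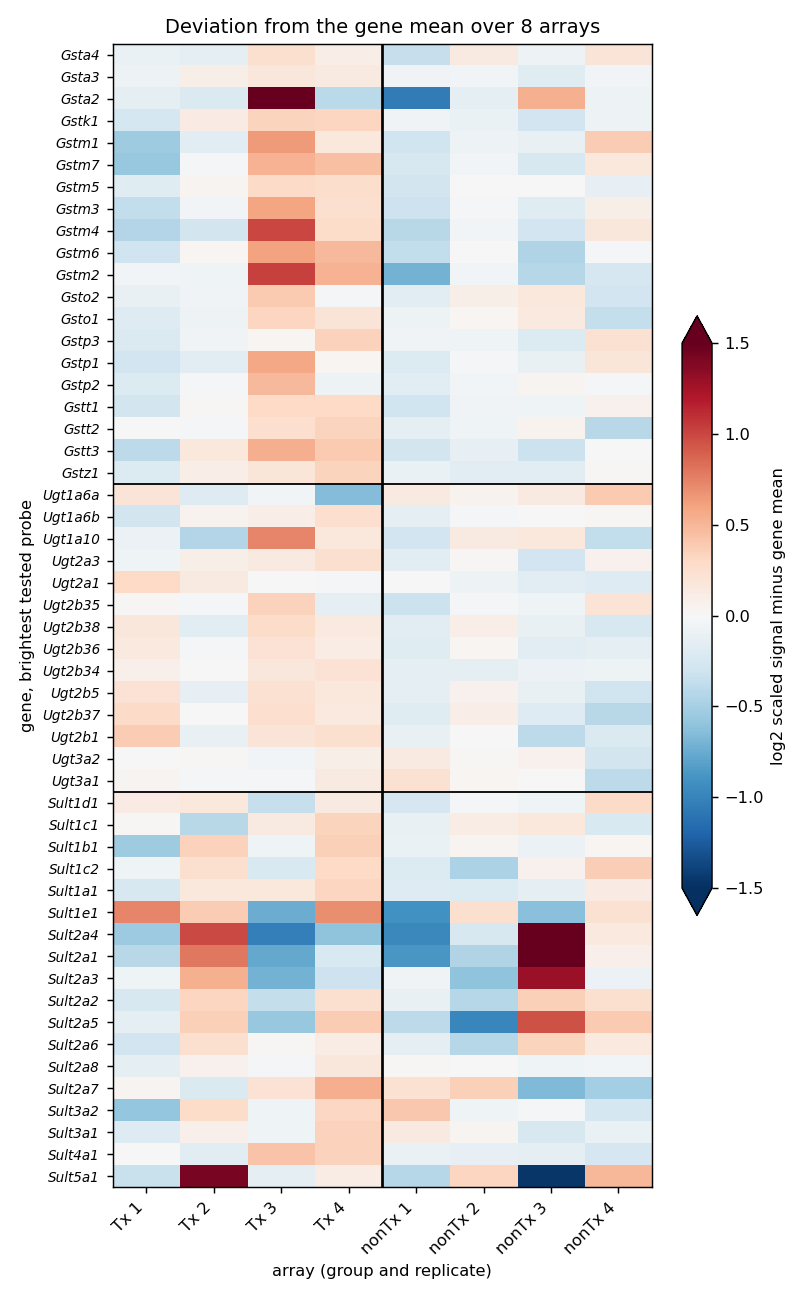
Log2 scaled signal minus the gene's mean over 8 arrays for the 52 tested genes, with GST, UGT and SULT genes from top to bottom and Tx arrays left. GST genes are mostly red in Tx 3, which held the highest value in 17 of 20, and the Sult2a genes stand out in nonTx 3.

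Each donor was described from a list of genes for its synthesis, transport and turnover, which include genes that do not make it. For UDP-glucuronate 4 of 8 genes were higher and 4 lower. Of the higher ones 3, Ugdh, Gusb and Slc35b1, had an unadjusted p under 0.05, where the share over all tested genes is 8.65%. Of these 3 only Ugdh makes UDP-glucuronate. Ugdh, the enzyme that makes UDP-glucuronate, had 6950, 7596, 10510 and 8245 in Tx livers, against 6370, 5688, 6368 and 5136 in nonTx livers. The groups did not overlap, as in 5.11% of all tested genes, and the difference was 0.49 ± 0.13 (limma, adjusted p = 0.283). Gusb, the lysosomal enzyme that removes glucuronate, had 2028, 1952, 2328 and 2108 in Tx livers, against 1718, 1728, 1671 and 1660 in nonTx livers, without overlap and with a difference of 0.31 ± 0.08. Slc35b1 differed by 0.33 ± 0.12. Ugp2 and Slc35d1, of the 4 lower genes and named after their values were seen, lay at -0.01 ± 0.09 and -0.09 ± 0.15.

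For PAPS and sulfate 7 of 9 tested genes were higher in Tx livers, with a median of 0.12. With this scaling 56.3% of all tested genes and 78.74% of the bright genes described above were higher. Slc26a2, a sulfate transporter, had 419.5, 318, 275.4 and 266.6 in Tx livers, against 390.6, 410.4, 422.5 and 357.2 in nonTx livers, and its difference was -0.33 ± 0.14. Slc26a1, another sulfate transporter, and Papss2, a PAPS synthase, differed by 0.21 ± 0.10 and 0.23 ± 0.13. For glutathione 9 of 12 genes were higher, with a median of 0.15 and 0 at an unadjusted p under 0.05. Chac2, Gss (glutathione synthetase) and Ggt6 differed by 0.20 ± 0.11, 0.16 ± 0.09 and 0.31 ± 0.19. None of these passed an adjusted p of 0.05.

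**Figure D5:**
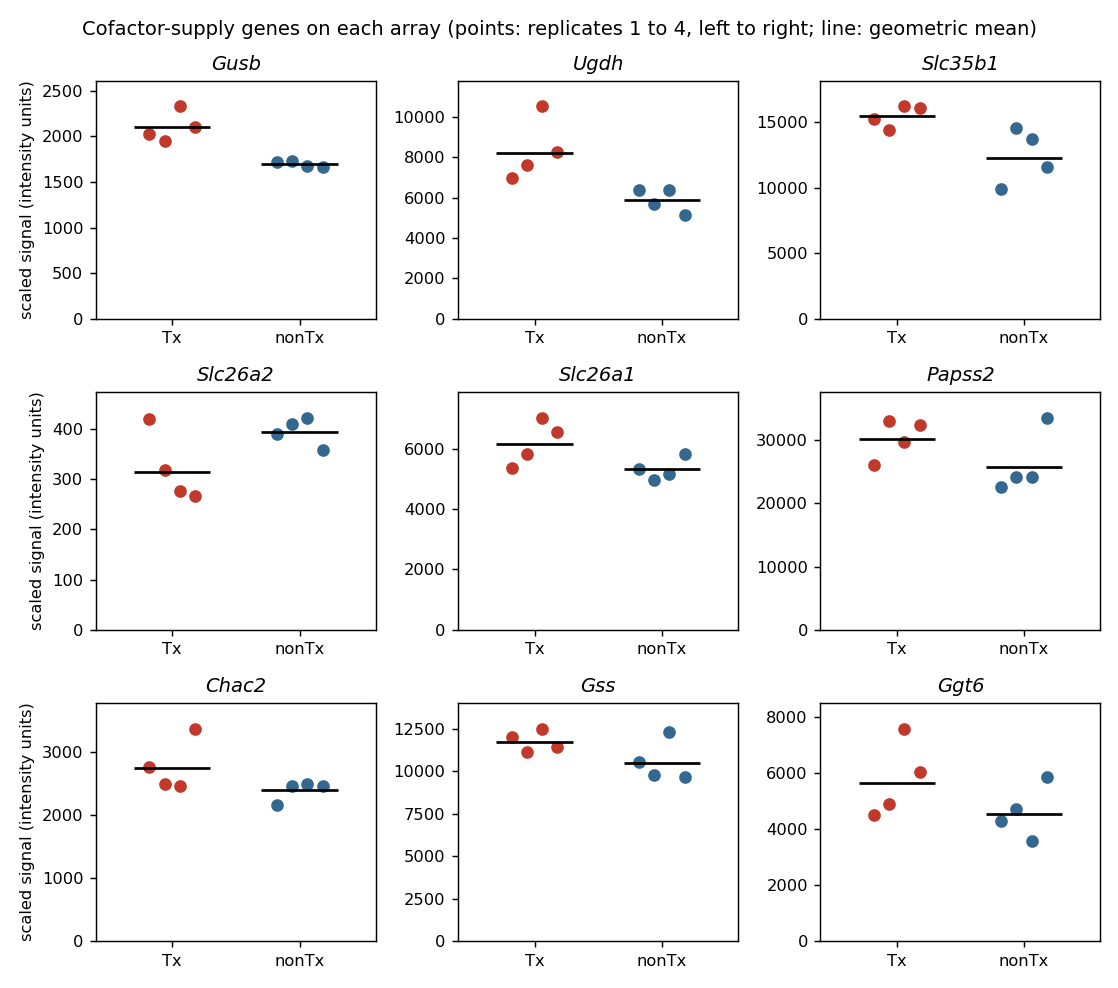
Scaled signal on each array for the 3 genes with the smallest p in each donor-supply list; each panel has its own axis from 0, and lines are geometric means of 4 arrays. The groups do not overlap in Gusb and Ugdh.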

How the data were processed

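Per the file headers the authors scanned the arrays with Agilent Feature Extraction 10.7.1.1, while the submitters' processing notes name version 9.1. The deposited values are intensity (processed signal), together with the authors' log2 values and log2 fold changes, whose own scaling is not given in the sources used here. All 656 raw member values in the deposited table equalled the scanner files within 1e-5 of their size. Processed signals were taken as log2, scaled to each array's 75th percentile after outlier spots were left out, and averaged per probe. Testing required a call of well above background on 3 or more arrays of either group, and 2 or more values in each. limma 3.58.1 in R 4.3.3 (lmFit, eBayes with a trend) compared the groups, with Benjamini-Hochberg adjustment over 30955 probes, and was tested on simulated data. Scaled signals were returned to intensity units with the geometric mean percentile, 269.7. Array number limits precision. The replicates may not be separate mice, in which case p-values measure only the spread between these samples. Members and gene lists were chosen with earlier results of these data known. Signals per array were given for the 5 members per family with the smallest p, the 3 with the largest difference and those without overlap. Sult2a1, Sult2a3 and Ugt2b38 were added after their values were seen, as was the alternative without scaling. Up to 3 genes per list were named, apart from those described as named after their values were seen. All 56 symbols matched RefSeq. The arrays' gene positions use another build and were not used here. Alternatives covered background correction, scaling, filters, the variance model, the replicate block and leaving out each array.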

Additional observations from a re-analysis of the deposited data

Results flagged for a closer look

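In 4 of 110 groups of 4 arrays, 1 array lay far from the other 3 by Dixon's test, and chance gives about 1 in 20. Gsta2 stood at 2582 in Tx 3, against 685.7 to 820.7 in the other Tx livers. Sult1d1 stood at 3406 in Tx 3, against 4733 to 4839 in the other Tx livers. Gsta3 stood at 108600 in nonTx 3, against 118900 to 119600 in the other nonTx livers. Ugt2b36 stood at 19260 in nonTx 2, against 16690 to 17070 in the other nonTx livers.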

How the results depend on the processing

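Of 25 alternatives, all gave 0 members past an adjusted p of 0.05. The count of probes past it, 0 as reported, was 2 with normexp, 6 with scaling to the array median, 202 with spike-in scaling, 5 with a robust variance and 7 with array weights. It was 1 with the authors' log2 values, no scaling, no variance trend and the replicate block. Leaving out 1 array gave 0 to 188, with 188 without Tx 2 and 12 without Tx 3. Members higher at an unadjusted p under 0.05, 7 as reported, numbered 2 with quantile normalization, 18 with the array median, 0 with spike-ins and 1 with no scaling. Leaving out 1 array gave 4 to 17, with 17 without Tx 1 and 4 without nonTx 1 or nonTx 3. Members lower numbered 1 with spike-ins, array weights and without Tx 1, and leaving out 1 array gave 0 to 1. The UGT median was 0.065 with quantile normalization, 0.304 with the array median, -0.0323 with spike-ins and 0.0456 with no scaling. With spike-ins the GST median was -0.0419 and the SULT median -0.190. Of the 52 tested members, 32 turned sign with spike-ins and 25 with at least 1 array left out. Among the 20 members examined singly, these were Ugt2b34 (-0.0046), Ugt2b36 (-0.013) and Sult1a1 (-0.035) with spike-ins. Leaving out 1 array turned 4 of the 20, whose ranges were -0.075 (without Tx 3) to 0.605 for Gsta2 and, with the positive end without nonTx 3, -1.02 to 0.060 for Sult2a4, -0.645 to 0.263 for Sult2a1 and -0.519 to 0.114 for Sult2a3. Of the 10 spike-in RNAs 8 were well above background on all 8 arrays, and the rest on 0 arrays. After the percentile scaling used for the reported values, all 10 were higher on Tx arrays, by 0.06 to 0.37. That scaling moved the median of all probes from -0.14, with no scaling, to 0.02, and the spike-in differences include this shift. Spike-in differences with no scaling are not given here, and the cause of any remaining difference was not tested. Replicate numbers did not pair the samples, with same-number correlations of 0.05, 0.08, 0.10 and -0.01.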

Other observations

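The counts here are with the 75th-percentile scaling, where 56.3% of all tested genes were higher. Among the 4685 bright genes described above 78.74% were higher, at a median of 0.12. All Tx arrays lay above all nonTx arrays in 5.11% of all tested genes. Among transporters that move drugs and conjugates, 9 of 17 were higher and 8 lower. Slc22a7, an organic anion transporter, had 6451, 8524, 6564 and 8116 in Tx livers, against 5463, 5461, 3216 and 6039 in nonTx livers, a difference of 0.58 ± 0.19 without overlap. Abcc3, an export pump for conjugates, differed by -0.20 ± 0.10. Of 12 genes of other phase II and reduction steps all 12 were higher, at a median of 0.21. Among these Cbr1, a carbonyl reductase, had 12920, 14500, 20710 and 17730 in Tx livers, against 12690, 12620, 12830 and 12180 in nonTx livers. Its groups did not overlap, at a difference of 0.37 ± 0.13, and Por and Ces1d differed by 0.29 ± 0.13 and 0.24 ± 0.12. Of 14 genes of other conjugation 11 were higher, and Nat8 differed by 0.60 ± 0.28, Acsm1 by 0.18 ± 0.10 and Baat by -0.14 ± 0.08. Of 4 tested membrane glutathione transferase genes 3 were higher, and Mgst2 differed by -0.75 ± 0.33. Of 19 regulators 11 were higher. The repressor Nr0b2 differed by -0.52 ± 0.20, Foxa2 by 0.34 ± 0.15 and Cux2, a female-biased liver repressor, by 0.64 ± 0.28. None of these genes passed an adjusted p of 0.05 (limma).

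Marker lists describe what else the livers held. Of the hepatocyte markers 5 of 10 were higher, with sums of 1023000 to 1203000 in Tx livers and 1108000 to 1203000 in nonTx livers, and Ttr differed by -0.37 ± 0.07. Of the T cell markers 7 of 8 were lower, with sums of 1018 to 1267 in Tx livers and 1365 to 1503 in nonTx livers. Numbers higher were 5 of 6 for B and plasma cells, 5 of 7 for Kupffer cells, 8 of 10 for periportal hepatocytes, 4 of 7 for sinusoidal endothelium, 5 of 7 for stellate cells and 1 of 5 for cholangiocytes. For other tissues 8, 6, 6 and 6 genes were listed, fewer of them with a tested probe. Numbers higher among those tested were 3 of 4 for exocrine pancreas, 2 of 2 for adipocytes, 1 of 2 for intestine and 1 of 1 for kidney. Pancreas sums were 14540 to 21060 in Tx livers and 8642 to 14710 in nonTx livers. Most of each sum was 1 gene, Cela1, at 13690 to 20140 in Tx livers and 7381 to 14120 in nonTx livers. The part of all these marker lists in the members' values was not tested.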
